A study of Mus musculus with 16 samples.

Results

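Collagens are the main structural proteins of the extracellular matrix, and each collagen molecule is built from 3 chains wound into a triple helix that depends on glycine recurring along each chain. Fibrillar collagens assemble into the banded fibres that accumulate in liver scars, type IV collagens form the sheet of the basement membrane under epithelia, and collagen VI makes beaded filaments that link cells to the fibres. In liver, fibrillar collagens are made above all by activated stellate cells and portal fibroblasts, whereas hepatocytes are a known source of collagen XVIII. Collagen chains were taken as all protein-coding genes whose symbol is Col, a number, a and a number. The rule found 44 chains among 55421 genes, of which 21926 are protein-coding. They were grouped as 11 fibrillar chains, 6 type IV (basement membrane) chains, 6 collagen VI chains and 21 other chains.

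RNA was sequenced from 16 libraries of mouse hepatic progenitor cells (oval cells), which are bipotent liver cells kept in culture. The 4 groups, of 4 libraries each, were Ptpn1-/- cells (KO) given palmitic acid, Ptpn1+/+ cells (WT) given palmitic acid, KO cells without it (KO control) and WT cells without it (WT control). Palmitic acid, a saturated fatty acid, was given at 400 µM for 8 h, in medium with serum and albumin. Ptpn1 encodes the tyrosine phosphatase PTP1B, which dampens insulin receptor signalling. How many cell lines or mice stand behind a genotype is not stated, and a difference of genotype cannot be told apart from one of cell line. Nor is it stated that the libraries of a group came from separate cultures. P-values thus rest on the spread among libraries, and that spread may be technical.

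Values are the deposited normalized counts, which were gene reads divided by a size factor per library, at 21553952 to 35693442 gene reads per library. A gene was called at a limma adjusted p under 0.05 (Benjamini-Hochberg, two-sided) among the 15239 genes that reached 10 normalized counts in 4 or more libraries, fitted as log2(value + 1). Fold changes below are on that scale, with the standard error (SE). Ptpn1 had 329.5 ± 16 normalized counts in KO control libraries and 1937 ± 39 in WT control libraries (SD, n = 4 each), and 293 ± 11.6 in KO and 1852 ± 16.7 in WT after palmitate, so the targeted gene was lower in every library labelled KO. Of the progenitor markers, Krt19 had 4545 ± 148 in KO control and 3407 ± 129 in WT control and Sox9 1861 ± 51.6 in KO control and 342 ± 28.6 in WT control. Epcam, a surface marker often used to define these cells, was at 0 in all WT libraries and averaged 1.77 in KO control.

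Of the 44 chains, 30 passed the filter on low values and 14 did not. Of the 30, 5 (Col6a5, Col6a6, Col11a1, Col10a1 and Col28a1) reached the filter only through WT libraries, so that a lower value in KO was a condition of their being tested. The other 25 reached it in at least 4 libraries of each genotype, and counts over these 25, chosen after the values were seen, leave out those 5. The 14 chains below it were Col2a1 and Col24a1 (fibrillar), Col6a4 (collagen VI), and Col8a2, Col9a1, Col9a2, Col13a1, Col14a1, Col17a1, Col19a1, Col22a1, Col23a1, Col25a1 and Col26a1. None of these exceeded 12.6 normalized counts in any library, and Col9a2, Col25a1 and Col26a1 had 0 reads in all 16, which allows up to 3 reads over a group. These low chains include the cartilage collagen II, the hemidesmosome collagen XVII and the neuronal collagen XXV.

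KO and WT cells held collagen mRNAs at different levels and in different proportions. In control libraries the interstitial fibrillar chains of types I, III and V and the 3 classical collagen VI chains were lower in KO, most of them to a few percent of the WT level or less. The ubiquitous type IV chains Col4a1 and Col4a2 differed by less than 1.1-fold, and Col18a1, Col11a2 and Col27a1 were higher in KO. Of the 30 chains tested, 22 were called lower and 4 higher in KO, where 39.3% of all genes tested were called lower, 37.8% higher and 77.1% either way. Over all genes that split was 5759 higher and 5985 lower, and 4993 and 6798 with libraries rescaled to the same total. Of the 25 chains that reached the filter in both genotypes, 17 were lower and 4 higher (median -2.14). At least 2-fold differences were called lower for 20 chains and higher for 2, against 11.7% and 10.4% of all genes. The median log2 fold change was -2.41 over the 30 chains and -0.01 over all genes tested. KO and WT libraries did not overlap for 24 of the 30 chains, against 71.4% of all genes tested. These 24 and the 20 above include chains tested only through WT libraries, whose lower KO level was a condition of testing. In bulk RNA, fewer cells of a type and less RNA per cell cannot be told apart.

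**Figure D1:**
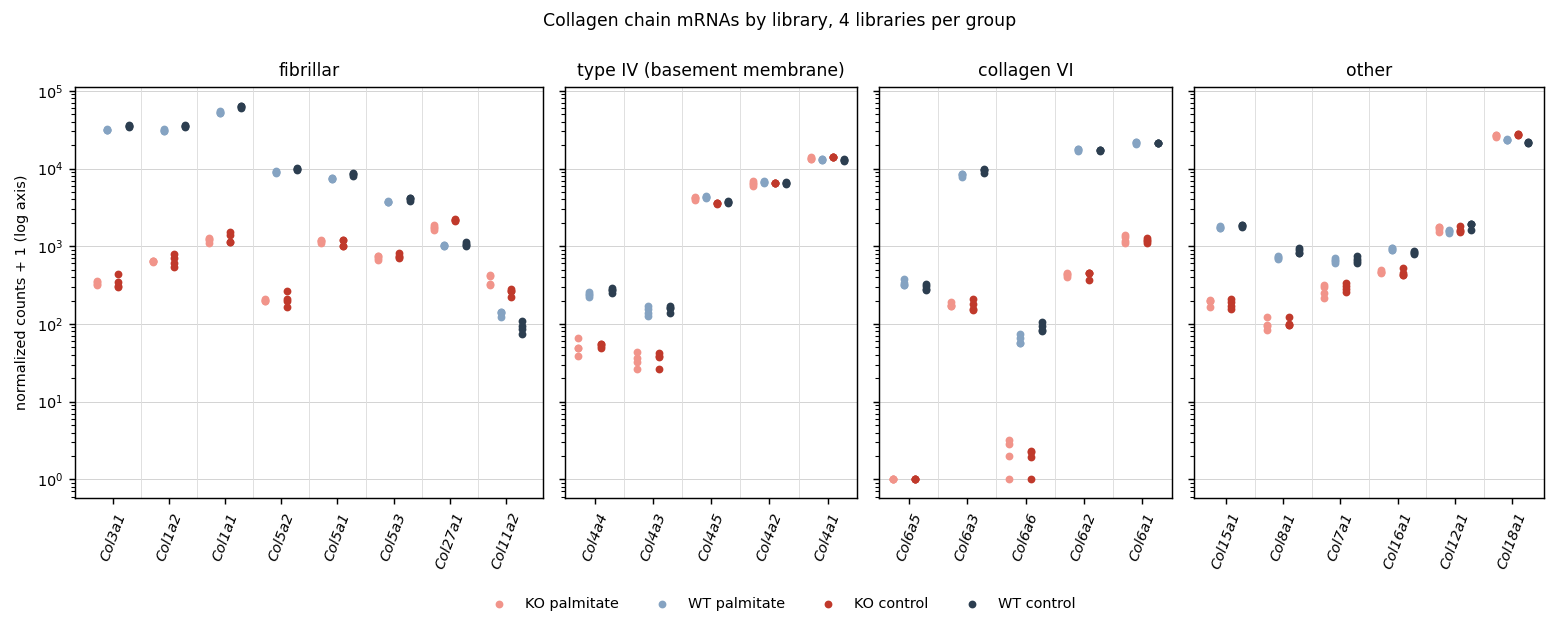
Normalized counts plus 1 (log axis) of the 24 chains that reached a mean of 50 in at least 1 group, with 1 point per library and the chains of each class ordered by their KO against WT difference in control. KO palmitate, WT palmitate, KO control and WT control libraries are drawn left to right. Col3a1 lies at 301 to 443 normalized counts in KO control, against 34656 to 36459.6 in WT control, whereas the points of Col4a2 and Col4a5 overlap between genotypes.

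The fibrillar chains of type I and III collagen had the highest levels in WT cells. Col1a1, the major chain of type I collagen, the bulk of scar fibres (chr11:94936224-94953042, plus strand, GRCm38), had 1137, 1142, 1544 and 1376 normalized counts in the KO control libraries, against 64433, 63076, 60203 and 61442 in the WT control libraries. After palmitate, Col1a1 stood at 1256, 1191, 1106 and 1285 in the KO libraries, against 52186, 53807, 52581 and 55488 in the WT libraries. No KO library reached the WT range, and Col1a1 was 47.9-fold lower in KO control (log2 fold change -5.59 ± 0.09, limma adjusted p = 4e-16) and 44.2-fold lower in KO after palmitate (-5.47 ± 0.09, limma adjusted p = 5.26e-16). Col1a2, its partner in the type I trimer (chr6:4504814-4541544, plus strand), gave 606, 537, 798 and 699 normalized counts in the KO control libraries, against 36571, 34999, 34723 and 34964 in the WT control libraries. After palmitate, Col1a2 gave 640.0, 640.0, 625 and 653 in the KO libraries, against 30611, 31127, 30746 and 32065 in the WT libraries. Col1a2 was lower in KO by about the same factor, with a log2 fold change of -5.75 ± 0.09 in control (limma adjusted p = 4.47e-16) and -5.60 ± 0.09 after palmitate (limma adjusted p = 6.13e-16).

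Col3a1, the only chain of type III collagen, which runs with type I in distensible tissue and in young scars (chr1:45311538-45349706, plus strand), had 308, 301, 443 and 349.5 normalized counts in the KO control libraries, against 36459.6, 34656, 35467 and 35172 in the WT control libraries. After palmitate, Col3a1 had 351, 324, 341 and 312 in the KO libraries, against 31417, 31283, 31040.1 and 31999 in the WT libraries. Among the fibrillar chains it had the largest difference, 101-fold lower in KO control (-6.67 ± 0.09, limma adjusted p = 1.68e-16) and 94.7-fold lower in KO after palmitate (-6.56 ± 0.09, limma adjusted p = 2.04e-16). KO control library 3 was the highest of the KO control libraries for Col1a1, Col1a2, Col3a1 and Col5a2. Without it the log2 fold changes in control were -5.68, -5.85, -6.79 and -5.69.

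The genes of the fibrillar chains are built from many exons of exactly 54 bases that begin with a glycine codon and hold 1 such codon every 9 bases. In the longest coding transcripts of GENCODE vM21, 21 to 33 exons per fibrillar gene were 54 bases long (41.2% to 55.0% of its exons), against 1 to 3 in type IV genes (2.1% to 5.7%), 2 to 3 in collagen VI genes (6.8% to 8.6%) and 0 to 28 in the other genes. Of the 305 such exons in fibrillar genes, 302 held the full glycine pattern in frame. The exons shown are coding exons of 4 chains that were far lower in KO, with the glycine codons in capitals, read on the coding strand of GRCm38 (Col1a1 exon 8, chr11:94939904-94939957, plus strand; Col1a2 exon 8, chr6:4515481-4515534, plus strand; Col3a1 exon 6, chr1:45325360-45325413, plus strand; Col5a2 exon 6, chr1:45434892-45434945, minus strand).
Col1a1: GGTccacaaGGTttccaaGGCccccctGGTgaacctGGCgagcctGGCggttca
Col1a2: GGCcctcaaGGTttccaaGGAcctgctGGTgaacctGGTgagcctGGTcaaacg
Col3a1: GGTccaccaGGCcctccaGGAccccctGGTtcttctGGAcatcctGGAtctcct
Col5a2: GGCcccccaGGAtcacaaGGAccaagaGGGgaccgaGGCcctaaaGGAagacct

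Type V collagen is buried in type I fibrils and starts their assembly. Col5a1, the chain present in nearly all type V molecules, had 1013, 1021, 1192 and 1190.1 normalized counts in the KO control libraries, against 8601, 8654, 8103 and 8547 in the WT control libraries. After palmitate, Col5a1 had 1114, 1209, 1169 and 1179 in the KO libraries, against 7311, 7507, 7385 and 7634 in the WT libraries. It was 7.68-fold lower in KO control (-2.94 ± 0.04, limma adjusted p = 3.8e-24) and 6.39-fold lower in KO after palmitate (-2.67 ± 0.04, limma adjusted p = 2.28e-23). Col5a2, its usual partner, whose gene lies tail to tail with Col3a1 at a distance of 24.6 kb (chr1:45374321-45503282, minus strand), gave 167, 196, 262 and 209 normalized counts in the KO control libraries, against 10106, 9798, 9618 and 9921 in the WT control libraries. After palmitate, Col5a2 gave 208, 196, 202 and 198 in the KO libraries, against 9124, 8869, 9163 and 8999 in the WT libraries. Its difference was larger than that of Col5a1, 47.3-fold in control (-5.58 ± 0.09, limma adjusted p = 4.67e-16) and 45-fold after palmitate (-5.49 ± 0.09, limma adjusted p = 5.77e-16). Col5a3, the less widespread chain of type V, reached 714, 733, 742 and 823 normalized counts in the KO control libraries, against 4127, 4206, 3861 and 4114 in the WT control libraries. After palmitate, Col5a3 reached 705, 744, 671 and 749 in the KO libraries, against 3689, 3745, 3662 and 3790.0 in the WT libraries. The log2 fold change of Col5a3 was -2.44 ± 0.04 in control (limma adjusted p = 4.94e-28) and -2.38 ± 0.04 after palmitate (limma adjusted p = 9.39e-28). Per kb of transcript, Col5a1 was 4.24 ± 0.52 times the level of Col5a2 in KO control and 0.678 ± 0.014 times in WT control (SD, n = 4 each), so the order of the partner chains was opposite in the genotypes.

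Of the fibrillar chains of cartilage, Col11a2 and Col27a1 were higher in KO. Col11a2, a chain of type XI collagen, which nucleates the fibrils of cartilage, had 220.4, 261, 261 and 281 normalized counts in the KO control libraries, against 93, 108, 74.2 and 86.2 in the WT control libraries. After palmitate, Col11a2 had 327, 424, 319 and 416 in the KO libraries, against 122, 144, 140.2 and 139 in the WT libraries. All KO libraries lay above all WT libraries in each condition, and Col11a2 was 2.83-fold higher in KO control (1.50 ± 0.11, limma adjusted p = 1.09e-12) and 2.73-fold higher in KO after palmitate (1.43 ± 0.11, limma adjusted p = 2.88e-12). Col27a1, a fibrillar chain of growing cartilage, gave 2210.1, 2184, 2132 and 2207 normalized counts in the KO control libraries, against 1083, 1046, 998 and 1132 in the WT control libraries. After palmitate, Col27a1 gave 1717, 1748, 1625 and 1872 in the KO libraries, against 1035, 1015, 1030.1 and 1006 in the WT libraries. It was 2.05-fold higher in KO control (1.04 ± 0.04, limma adjusted p = 1.54e-19) and 1.7-fold higher in KO after palmitate (0.77 ± 0.04, limma adjusted p = 1.89e-16). Col11a1, the partner of Col11a2 in cartilage, was low, with 1.2 to 3.8 in KO control and 30 to 46 in WT control, and was tested only because of its WT libraries. Of the 8 fibrillar chains that reached the filter in both genotypes, 6 were lower and 2 higher in KO control (median -4.26), and 6 lower and 2 higher after palmitate (median -4.07).

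The 3 collagen VI chains that reached the filter in both genotypes were each lower in KO, in control (median -5.32) and after palmitate (median -5.35). Col6a1, the first of the 3 classical chains that form the collagen VI monomer (chr10:76708792-76726168, minus strand), had 1111, 1163, 1286 and 1210.0 normalized counts in the KO control libraries, against 21636, 21084, 21108 and 21629 in the WT control libraries. After palmitate, Col6a1 had 1172, 1309, 1104 and 1378 in the KO libraries, against 20994, 22057, 21222 and 22131 in the WT libraries. It had the smallest difference of the 3, 17.9-fold lower in KO control (-4.16 ± 0.06, limma adjusted p = 1.55e-19) and 17.4-fold lower after palmitate (-4.13 ± 0.06, limma adjusted p = 1.79e-19). Col6a2, its neighbour at a distance of 85.2 kb on the same strand (chr10:76595762-76623630, minus strand), gave 369.9, 454, 449 and 457 normalized counts in the KO control libraries, against 17275, 16898, 17243 and 17433 in the WT control libraries. After palmitate, Col6a2 gave 422, 443, 397 and 446 in the KO libraries, against 16911, 17621, 17316 and 18054 in the WT libraries. Col6a2 was 39.8-fold lower in KO control (-5.32 ± 0.05, limma adjusted p = 5.73e-24) and 40.9-fold lower after palmitate (-5.35 ± 0.05, limma adjusted p = 5.23e-24). Col6a3, the large chain that completes the monomer, had 156, 152, 206 and 180.5 normalized counts in the KO control libraries, against 9488, 9964, 8892 and 9480.2 in the WT control libraries. After palmitate, Col6a3 had 169.9, 191, 171 and 174 in the KO libraries, against 8284, 8420.0, 7751 and 8496 in the WT libraries. Its log2 fold change was -5.77 ± 0.08 in control (limma adjusted p = 1.47e-19) and -5.54 ± 0.08 after palmitate (limma adjusted p = 2.6e-19).

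The 3 classical chains stood in different proportions in the genotypes. Per kb, Col6a1 was 3.14 ± 0.23 times Col6a2 in KO control and 1.41 ± 0.014 times in WT control, and 17.1 ± 1.48 times Col6a3 in KO control and 5.58 ± 0.264 times in WT control (SD, n = 4 each). The libraries of the genotypes did not overlap for either ratio. By comparison, Col1a1 was 1.78 ± 0.096 times Col1a2 in KO control and 1.59 ± 0.025 times in WT control, a smaller shift.

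The alternative collagen VI chains, which can take the place of Col6a3, lie in a row on chromosome 9. Col6a5, the middle gene of the row (chr9:105856078-105960643, minus strand), had 0, 0, 0 and 0 normalized counts in the KO control libraries, against 303, 283, 275 and 321 in the WT control libraries. After palmitate, Col6a5 had 0, 0, 0 and 0 in the KO libraries, against 372, 316, 315 and 332 in the WT libraries. With 0 reads in all 8 KO libraries, Col6a5 was at least 337-fold lower in KO control and at least 429-fold lower in KO after palmitate, taking a floor of 3 reads over the KO group. Col6a6, its neighbour at 27.9 kb (chr9:105687809-105828160, minus strand), gave 1.31, 1.22, 0 and 0.95 normalized counts in the KO control libraries, against 93, 82.7, 105 and 80.8 in the WT control libraries. After palmitate, Col6a6 gave 1.02, 0, 2.22 and 1.86 in the KO libraries, against 56.1, 73.9, 64.5 and 56.1 in the WT libraries. From 3 reads over the KO control group, Col6a6 had a WT to KO ratio of 104 in control (95% counting interval 35.2 to 505). Col6a4, on the other side of Col6a5 at 28.8 kb, stayed below the filter.

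**Figure D2:**
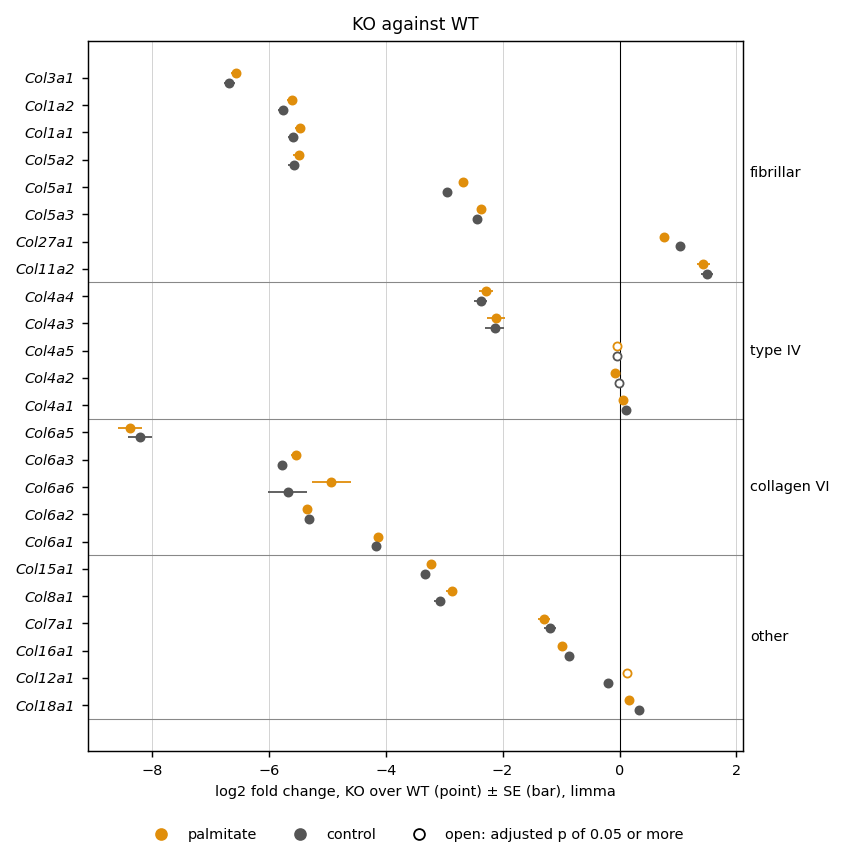
Log2 fold change of KO over WT (limma, point) with its SE (bar) for the 24 chains, after palmitate (above) and in control (below) for each chain, grouped by class. Open points have an adjusted p of 0.05 or more. Type I and III chains, Col6a1, Col6a2 and Col6a3 lie between -6.67 and -4.13, and Col4a1, Col4a2, Col4a5 and Col12a1 lie near 0. Col6a5 and Col6a6 were tested only because of their WT libraries. The Col6a5 points (-8.21 in control, -8.38 after palmitate) rest on 0 KO reads. Under the alternatives they ran from -11.24 to -4.93 in control and from -11.41 to -5.1 after palmitate.

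Type IV collagen chains come from 3 pairs of genes that are transcribed away from each other from neighbouring starts, and the pairs differed. Col4a1, the chain found in all basement membranes as a trimer with Col4a2 (chr8:11198423-11312826, minus strand), had 13982, 14067, 14110.4 and 13929.5 normalized counts in the KO control libraries, against 12973, 13167, 12565 and 13033 in the WT control libraries. After palmitate, Col4a1 had 13217, 14027, 13269 and 13708 in the KO libraries, against 12721, 12936, 13083 and 13345 in the WT libraries. KO control libraries lay above WT control libraries by a log2 fold change of 0.12 ± 0.03 (limma adjusted p = 0.000143), and after palmitate the value was 0.06 ± 0.03 (limma adjusted p = 0.0398). In control the call was lost with libraries rescaled to the same total (0.04, limma adjusted p = 0.171) and with quantile normalization (0.03, limma adjusted p = 0.252). The direction after palmitate depended on the scaling, since it was -0.04 with libraries rescaled to the same total and -0.05 with quantile normalization. Col4a2, its partner, which shares 22 exon bases with Col4a1 on the other strand (chr8:11312805-11449287, plus strand), gave 6466, 6443, 6458 and 6576 normalized counts in the KO control libraries, against 6510.0, 6680.0, 6260.4 and 6534 in the WT control libraries. After palmitate, Col4a2 gave 6004, 6904, 6234 and 6437 in the KO libraries, against 6443, 6706, 6767 and 7003 in the WT libraries. Col4a2 overlapped between genotypes, with a log2 fold change of -0.00 ± 0.03 in control (95% interval -0.07 to 0.07, limma adjusted p = 0.961) and -0.07 ± 0.03 after palmitate (limma adjusted p = 0.0437). Removing a trend with GC content and length turned these values to 0.16 and 0.11, both called higher, so the direction of Col4a2 depended on this choice. In control it was instead called lower with rescaled totals (-0.08, limma adjusted p = 0.0492) and quantile normalization (-0.13, limma adjusted p = 0.00444). After palmitate its lower call was kept under 16 of 29 alternatives, and was lost with TMM scaling, with no filter, without the mean-variance trend, in the compared groups alone and without KO palmitate library 1, 3 or 4, WT palmitate library 2, 3 or 4, or KO control library 2 or 3. Per kb, Col4a1 was 2.11 ± 0.031 times Col4a2 in KO control and 1.94 ± 0.015 times in WT control.

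Col4a3, a chain of the kidney filter that is mutated in Alport syndrome (chr1:82586921-82722059, plus strand), had 38, 25.5, 41.9 and 36.1 normalized counts in the KO control libraries, against 169.9, 138, 160.0 and 159.5 in the WT control libraries. After palmitate, Col4a3 had 42.7, 35.9, 31.1 and 25.1 in the KO libraries, against 138, 168, 126 and 155 in the WT libraries. It was lower in KO in control (-2.14 ± 0.16, limma adjusted p = 5.9e-13) and after palmitate (-2.11 ± 0.16, limma adjusted p = 7.85e-13). Col4a4, its partner in the kidney trimer, 71 bases away on the other strand (chr1:82448423-82586849, minus strand), gave 53.8, 53.5, 47.9 and 51.3 normalized counts in the KO control libraries, against 252, 276, 275 and 286 in the WT control libraries. After palmitate, Col4a4 gave 64.1, 47.8, 37.8 and 47.4 in the KO libraries, against 244, 221, 259 and 236 in the WT libraries. Col4a4 was lower in KO by a like amount in control (-2.38 ± 0.12, limma adjusted p = 6.06e-17) and after palmitate (-2.28 ± 0.12, limma adjusted p = 1.56e-16). Of the exon bases of Col4a3, 5.65% are shared with C430014B12Rik on the other strand, which did not exceed 14.2 normalized counts.

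Col4a5, the X-linked Alport chain (chrX:141475385-141689234, plus strand), had 3583, 3547, 3595 and 3639 normalized counts in the KO control libraries, against 3666, 3690.2, 3604 and 3799 in the WT control libraries. After palmitate, Col4a5 had 3968, 4249, 4158 and 4191 in the KO libraries, against 4144, 4306, 4299 and 4408 in the WT libraries. The genotypes overlapped, with a log2 fold change of -0.04 ± 0.03 in control (95% interval -0.10 to 0.02, limma adjusted p = 0.205) and -0.05 ± 0.03 after palmitate (95% interval -0.11 to 0.01, limma adjusted p = 0.0985). With rescaled totals these were -0.12 and -0.15 and with quantile normalization -0.14 and -0.18, all called lower. Col4a6, a chain of smooth muscle and some epithelial basement membranes that starts 1308 bases from Col4a5 (chrX:141165403-141474076, minus strand), had 4.86 to 13.1 in KO control and 34.5 to 45.2 in WT control (-2.02 ± 0.25, limma adjusted p = 3.68e-08), and 11.1 to 20.4 in KO and 29 to 52.2 in WT after palmitate (-1.46 ± 0.25, limma adjusted p = 8.07e-06). The genes of this pair therefore had unlike KO to WT differences, whereas those of the Col4a3 and Col4a4 pair had similar ones. In all, 3 of the 6 type IV chains were lower and 1 higher in KO control (median -1.03), and 4 were lower and 1 higher after palmitate (median -0.77). Over all genes tested, 39.3% were called lower and 37.8% higher in control, and 77.1% either way. The higher calls were those of Col4a1, and the lower call added after palmitate was that of Col4a2. Both depended on the processing.

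**Figure D3:**
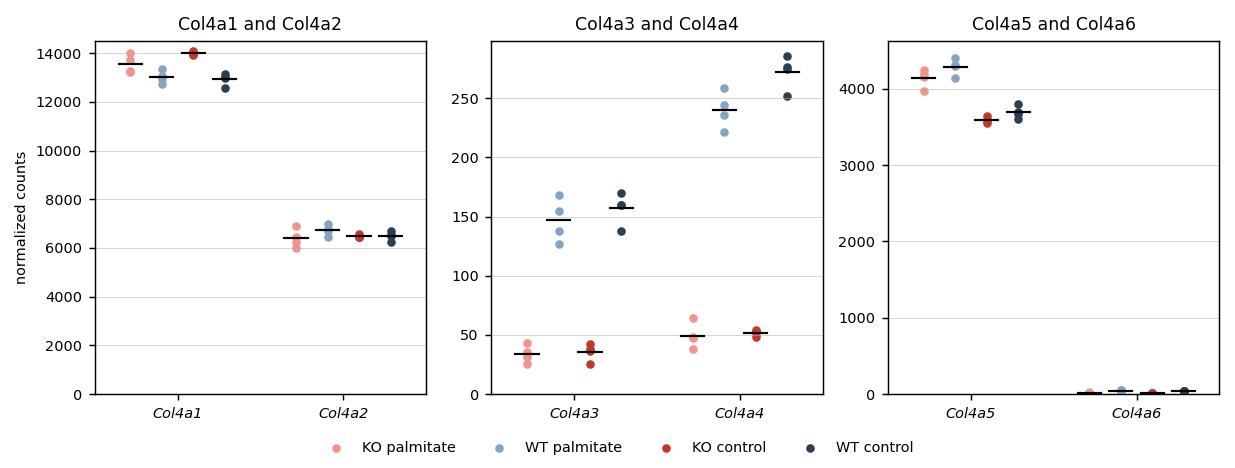
Normalized counts of the 3 head-to-head pairs of type IV genes, with 1 point per library and a bar at the mean of 4. KO lies left of WT within each condition, and palmitate lies left of control. Col4a3 and Col4a4 are both lower in KO, Col4a1 and Col4a2 are close between genotypes, and Col4a6 is near 0 on the scale of Col4a5, at 4.86 to 13.1 in KO control and 34.5 to 45.2 in WT control.

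Promoter windows from 250 bases before to 50 after the start were found in the RefSeq table (GRCm38.p6) for 35 of the 44 chains, 38 windows in all. The chains not in that table were Col12a1, Col14a1, Col1a1, Col22a1, Col26a1, Col2a1, Col4a3, Col5a2 and Col9a3. A TATA box (TATAAA or TTTATA) stood in 5 of 38 windows (13.2%), against 13.6% of all 32851 windows in that table. A CCAAT box (CCAAT or ATTGG) stood in 13 (34.2%), against 37.4%, and a GC box (GGGCGG or CCGCCC) in 23 (60.5%), against 35.7%. The 4 windows shown are those of 2 fibrillar genes that were far lower in KO, of Col4a2, which was close between genotypes, and of Col4a4, which was lower. Capitals mark these motifs on either strand, and no base lay in more than 1 motif. The windows of Col4a2 and Col4a1 share 78 bases. They are given 5′ to 3′ on the strand of the gene (Col1a2, chr6:4505368-4505667, plus strand; Col3a1, chr1:45311288-45311587, plus strand; Col4a2, chr8:11312555-11312854, plus strand; Col4a4, chr1:82586800-82587099, minus strand).
Col1a2: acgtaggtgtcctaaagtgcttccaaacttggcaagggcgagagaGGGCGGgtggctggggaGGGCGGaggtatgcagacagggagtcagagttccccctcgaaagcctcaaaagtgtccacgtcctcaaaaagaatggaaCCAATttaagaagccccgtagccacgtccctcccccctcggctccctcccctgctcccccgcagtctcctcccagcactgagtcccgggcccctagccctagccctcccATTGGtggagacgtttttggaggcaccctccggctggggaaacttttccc
Col3a1: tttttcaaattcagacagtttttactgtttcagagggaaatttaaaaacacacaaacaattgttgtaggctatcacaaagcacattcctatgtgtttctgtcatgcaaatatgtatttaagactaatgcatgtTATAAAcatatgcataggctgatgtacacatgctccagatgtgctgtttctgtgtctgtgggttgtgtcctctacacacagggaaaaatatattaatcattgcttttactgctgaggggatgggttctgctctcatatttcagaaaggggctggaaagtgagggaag
Col4a2: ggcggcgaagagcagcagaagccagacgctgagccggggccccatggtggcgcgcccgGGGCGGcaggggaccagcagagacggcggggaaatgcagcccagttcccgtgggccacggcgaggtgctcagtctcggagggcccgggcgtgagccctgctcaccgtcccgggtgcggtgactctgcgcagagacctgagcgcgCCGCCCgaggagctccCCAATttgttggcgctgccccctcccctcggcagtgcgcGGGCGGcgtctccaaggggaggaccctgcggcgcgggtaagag
Col4a4: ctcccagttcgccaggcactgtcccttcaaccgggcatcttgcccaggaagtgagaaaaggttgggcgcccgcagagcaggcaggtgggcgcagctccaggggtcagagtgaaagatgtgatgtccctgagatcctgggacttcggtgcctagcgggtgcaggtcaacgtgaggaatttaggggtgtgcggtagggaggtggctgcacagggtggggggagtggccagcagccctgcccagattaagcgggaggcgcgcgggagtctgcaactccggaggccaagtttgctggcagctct

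Among the other collagens, the multiplexins of the basement membrane zone had opposite directions. Col18a1, whose cleaved end is endostatin (chr10:77052178-77166548, minus strand), had 27932, 27605, 27205 and 26971 normalized counts in the KO control libraries, against 21432, 21731, 21479.8 and 22245 in the WT control libraries. After palmitate, Col18a1 had 26702, 26742, 25229.9 and 26267 in the KO libraries, against 23172, 23470.1, 23313 and 24331 in the WT libraries. KO lay above WT with no overlap in each condition, by a log2 fold change of 0.34 ± 0.03 in control (limma adjusted p = 8.47e-13) and 0.15 ± 0.03 after palmitate (limma adjusted p = 2.89e-06). Col15a1, a related chain that in mouse liver marks portal fibroblasts, gave 169, 157, 211 and 193 normalized counts in the KO control libraries, against 1784, 1796, 1849 and 1897 in the WT control libraries. After palmitate, Col15a1 gave 162, 197, 193 and 202 in the KO libraries, against 1697, 1791, 1733 and 1838 in the WT libraries. It was 10-fold lower in KO control (-3.33 ± 0.07, limma adjusted p = 2.05e-21) and 9.37-fold lower after palmitate (-3.23 ± 0.07, limma adjusted p = 3.98e-21).

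The fibril-associated collagens, which sit on the surface of fibres, differed less. Col12a1, which binds type I fibrils, had 1574, 1619.8, 1519 and 1809 normalized counts in the KO control libraries, against 1910.5, 1939.6, 1637 and 1956 in the WT control libraries. After palmitate, Col12a1 had 1527, 1783, 1774 and 1651 in the KO libraries, against 1595, 1566, 1460.1 and 1568 in the WT libraries. The genotypes overlapped in each condition, and Col12a1 was called lower in KO control (-0.19 ± 0.06, limma adjusted p = 0.0129) but not after palmitate (0.12 ± 0.06, limma adjusted p = 0.1). Col16a1, a chain linked to fibrillin and type II fibrils, gave 419.7, 431, 446 and 531 normalized counts in the KO control libraries, against 844, 809, 805 and 872 in the WT control libraries. After palmitate, Col16a1 gave 457, 461, 463 and 495 in the KO libraries, against 942, 896, 906 and 962 in the WT libraries. Col16a1 was lower in KO without overlap in control (-0.87 ± 0.06, limma adjusted p = 3.64e-14) and after palmitate (-0.98 ± 0.06, limma adjusted p = 2.27e-15). Col20a1 and Col9a3, of the same family, had 26.3 to 36.7 and 8.37 to 17.1 in KO control, against 19.9 to 26.4 and 12.6 to 21.3 in WT control, and were not called there. After palmitate Col20a1 was called higher in KO (0.46 ± 0.18, limma adjusted p = 0.0245), with overlap between the genotypes. Col20a1 shares 1.54% of its exon bases with BX649560.1 on the same strand, which reached 235 normalized counts.

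Col8a1, a short chain of the network around vessels and in the eye, had 98.4, 96, 122 and 95 normalized counts in the KO control libraries, against 953, 892, 829 and 817 in the WT control libraries. After palmitate, Col8a1 had 122, 82.6, 95.6 and 93.8 in the KO libraries, against 759, 725, 684 and 709 in the WT libraries. It was 8.49-fold lower in KO control (-3.08 ± 0.09, limma adjusted p = 1.92e-20) and 7.3-fold lower after palmitate (-2.87 ± 0.09, limma adjusted p = 9.04e-20). Col7a1, the chain of the anchoring fibrils under skin epithelium, gave 281, 307, 257 and 338 normalized counts in the KO control libraries, against 679, 744, 615 and 651 in the WT control libraries. After palmitate, Col7a1 gave 250.3, 296, 217 and 314 in the KO libraries, against 669.8, 609, 652 and 700.4 in the WT libraries. Col7a1 was lower in KO in control (-1.19 ± 0.10, limma adjusted p = 4.75e-09) and after palmitate (-1.30 ± 0.10, limma adjusted p = 1.27e-09). Col28a1, a chain with von Willebrand factor domains, and Col10a1, of hypertrophic cartilage, were low, at 1.31 to 3.8 and 1.31 to 4.86 in KO control and 34.5 to 41.8 and 4.54 to 14 in WT control, and both were tested only because of their WT libraries. Of the 8 other chains that reached the filter in both genotypes, 5 were lower and 1 higher in KO control (median -0.68), and 4 were lower and 2 higher after palmitate (median -0.63). In each condition 77.1% of all genes tested were called either way.

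The composition of the summed collagen mRNA differed accordingly. The 44 chains made up 0.221 to 0.226% of all normalized counts in KO control libraries and 0.941 to 0.977% in WT control libraries. Summed per kb of transcript, fibrillar chains were 9.88 ± 0.756% of the collagen total in KO control and 59.4 ± 0.511% in WT control, and collagen VI was 3.88 ± 0.24% in KO control and 21.9 ± 0.243% in WT control (SD, n = 4 each). Type IV chains were 35.6 ± 0.144% of the total in KO control and 7.93 ± 0.135% in WT control. The summed per-kb level of type IV itself was 3676 to 3695 in KO control and 3473 to 3640.0 in WT control, a much smaller difference than that of its share. Col18a1 alone was 47.4 ± 0.971% of the total in KO control and 8.61 ± 0.203% in WT control.

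**Figure D4:**
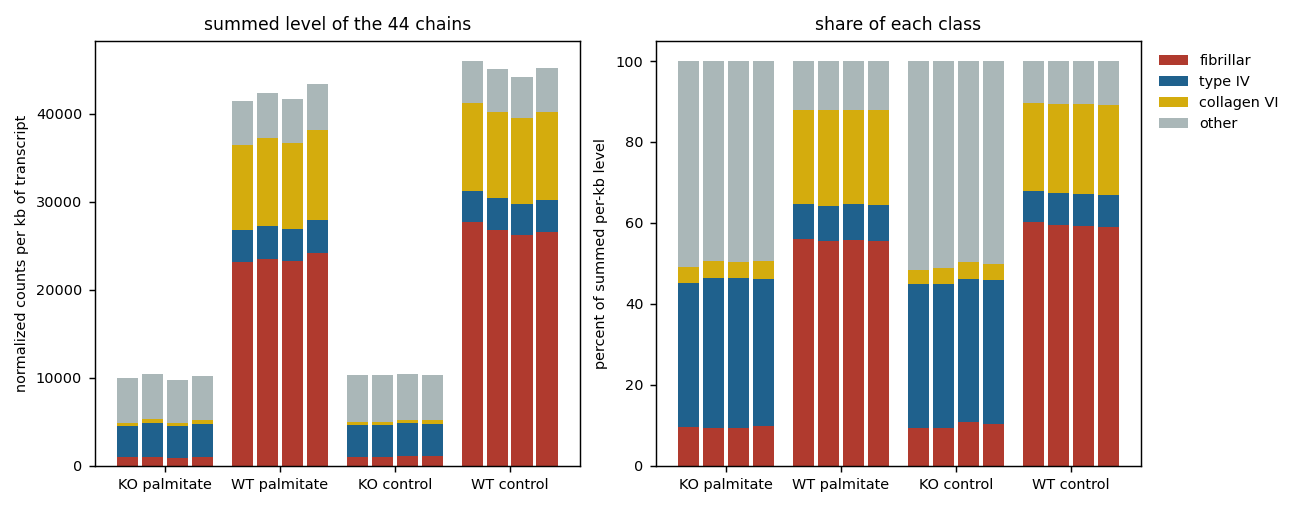
Summed level of the 44 chains per kb of transcript (left) and the share of each class in that sum (right), 1 bar per library. Fibrillar and collagen VI chains fill most of each WT bar, and type IV and other chains most of each KO bar, at 35.6 ± 0.144% type IV in KO control and 7.93 ± 0.135% in WT control.

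Ranked by level per kb, the leading chains in KO control were Col18a1 (4902 ± 76.1), Col4a1 (2119.8 ± 12.3), Col4a2 (1006 ± 9.47) and Col4a5 (549 ± 5.77). Col6a1 (291 ± 18.1) and Col27a1 (287 ± 4.76) followed and overlapped each other, and Col1a1 came next (219 ± 33.3). In WT control the order was Col1a1 (10504 ± 312), Col1a2 (6603 ± 158), Col3a1 (6369 ± 136), Col6a1 (5211 ± 75.6), Col18a1 (3882 ± 66.6), Col6a2 (3699 ± 48.5) and Col4a1 (1955 ± 39.2). Of these neighbours only Col1a2 and Col3a1 overlapped between libraries. Col18a1 and Col4a1 were thus near the top in both genotypes, and Col1a1, first in WT control, was 7th in KO control.

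Marker genes of stellate cells and fibroblasts, taken without collagens, moved with the fibrillar and collagen VI chains. Of the 12 markers, 7 passed the filter, 2 of them (Dcn and Des) only through WT libraries, and the other 5 were lower in KO control (median -4.56). The summed level of the 12 was 2141 to 2476 in KO control and 27759 to 31700.4 in WT control. After palmitate the same 5 were lower in KO, with sums of 2016 to 2152 in KO and 24854 to 25164 in WT. Acta2, the smooth muscle actin of activated stellate cells, had 375 ± 62 in KO control and 9219 ± 1289 in WT control. Lrat and Hand2, which define quiescent stellate cells, were at 0 in all 16 libraries, and Thy1, of portal fibroblasts, was at 0 in all but 1 WT palmitate library. Hepatocyte markers went the other way, with 4 of the 4 that reached the filter in both genotypes higher in KO control and sums of 52939.9 to 56427 in KO control and 2812 to 3050.1 in WT control, over the list. Alb, at 3638 ± 235 in KO control and 1.43 ± 0.874 in WT control, and Apoa1 passed the filter only through KO libraries. Progenitor and cholangiocyte markers summed to 221377 to 227840.3 in KO control and 109741 to 119306 in WT control, with 6 of the 6 that reached the filter in both genotypes higher. Most of that sum was Spp1, and without it the sums were 38992 to 40293 in KO control and 29771 to 30687 in WT control. Endothelial markers summed to 18 to 35.4 in KO control and 72.7 to 84.1 in WT control, and no marker reached the filter in both genotypes. Most of the WT sum was Cdh5, at a mean of 72.5 in WT control and 9.04 in KO control. Stab2 (11.6 in KO control, 0 in WT control) and Pecam1 (3.2 in KO control, 0.71 in WT control) went the other way. Kdr, Tek and Lyve1 averaged at most 2.29 in these groups. Macrophage markers summed to 743 to 799.6 in KO control and 664 to 691 in WT control, with 2 of 3 higher. After palmitate 1 of these 3 was higher and 1 lower in KO. Most of the macrophage sum was Csf1r, at a mean of 656 in KO control and 583 in WT control. Adgre1 and Clec4f were at 0 in all 16 libraries. Itgam averaged 1.76 in KO control and 1.02 in WT control, and was at 0 after palmitate. The marker counts stand beside 39.3% of all genes tested called lower and 37.8% higher in KO control, and 39% and 38.1% after palmitate. The part of any of these in the collagen differences was not tested.

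Genes that process collagen were also mostly lower in KO. The counts that follow are over genes that reached the filter in both genotypes, and stand beside 39.3% of all genes tested called lower and 37.8% called higher in KO control, with a median of -0.01. Of 15 genes for collagen folding and hydroxylation in the endoplasmic reticulum, 13 were lower and 2 higher in KO control (median -0.77). Serpinh1, the collagen chaperone HSP47, had 1090.0 ± 42.8 in KO control and 10569 ± 364 in WT control (-3.28 ± 0.03, limma adjusted p = 2.06e-33). Fkbp10, a prolyl isomerase needed for type I collagen crosslinks, had 56.7 ± 4.29 in KO control and 1472 ± 49 in WT control (-4.68 ± 0.06, limma adjusted p = 3.83e-30). The members that rose were the collagen galactosyltransferase Colgalt1 (0.85 ± 0.03) and P4hb (0.10 ± 0.02), a subunit of prolyl 4-hydroxylase with other roles in protein folding.

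Of 14 genes for procollagen export, trimming and crosslinking, 10 were lower and 4 higher in KO control (median -0.76). Lox, the main crosslinking oxidase, had 22.7 ± 9.73 in KO control and 2354 ± 207 in WT control (-6.76 ± 0.29, limma adjusted p = 7.1e-11), and Adamts2, which cuts the end off type I and III procollagen, 46.1 ± 6.13 in KO control and 1874 ± 91 in WT control (-5.32 ± 0.07, limma adjusted p = 4.16e-30). Higher in KO were Mia2 and Mia3, which load bulky cargo into export vesicles, the oxidase Loxl4 and the protease Adamts14. Of the fibril-associated proteoglycans, Bgn, which binds type I fibrils, was lower (-4.20 ± 0.10), and Dcn, Ogn, Aspn and Fmod passed the filter only through WT libraries.

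Of 7 collagen receptors, 3 were higher and 3 lower in KO control (median -0.10), shares near those of all genes. Ddr2, the receptor for fibrillar collagen on mesenchymal cells, was lower (-4.53 ± 0.12), as was the collagen uptake receptor Mrc2 (-4.33 ± 0.10), and the integrin chains Itga1 (1.32 ± 0.03) and Itga2 (1.43 ± 0.06) were higher. Of 4 collagenases and gelatinases, 3 were lower and 1 higher (median -0.37), with Mmp9 at 1.43 ± 0.21, and Mmp2 and Mmp16 passed the filter only through WT libraries. Among 13 basement membrane partners of type IV collagen, 10 had lower and 3 had higher levels in KO control (median -0.77). The laminin chains Lama4 (-6.53 ± 0.45) and Lamb1 (-2.43 ± 0.04) and the linker Nid1 (-2.22 ± 0.04) fell, and Lamb2 (0.81 ± 0.03), Nid2 (0.55 ± 0.06) and the proteoglycan Agrn (0.36 ± 0.03) rose.

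After palmitate the KO against WT pattern was close to that in control, with 22 chains called lower and 5 higher of 30, where 39% of all genes were called lower, 38.1% higher and 77.1% either way. Over all genes that split was 5811 higher and 5944 lower, and 4823 and 7034 with rescaled totals. Of the 25 chains that reached the filter in both genotypes, 17 were lower and 5 higher (median -2.11). At least 2-fold differences were called lower for 20 chains and higher for 1, against 12.2% and 10.1% of all genes. KO and WT libraries did not overlap for 24 chains, against 71.9% of all genes. Here too the 24 and the 20 include chains tested only through WT libraries. The chains called higher were Col11a2, Col27a1, Col18a1, Col4a1 and Col20a1, and the last 2 lost their call with libraries rescaled to the same total, which left 3. The libraries compared differ from those in control, but the fit took its spread from all 16 libraries, so the comparisons are not separate tests.

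Palmitate itself changed few collagen chains, and by small factors. In WT cells, 4 of 30 chains were called higher (Col11a2, Col16a1, Col18a1 and Col4a5) and 4 lower (Col5a1, Col5a3, Col8a1 and Col12a1) than in WT control, where 17.7% of all genes were called higher, 19.9% lower and 37.6% either way. None of the 30 changed as much as 2-fold, which 0.564% of all genes did upward and 0.138% downward. Across all genes that split was 2702 higher and 3032 lower, and 3656 and 2265 with libraries rescaled to the same total. Among the chains that rose, Col11a2 had a log2 fold change of 0.59 ± 0.11 (limma adjusted p = 8.84e-05), Col4a5 0.22 ± 0.03 (limma adjusted p = 4.75e-07), Col16a1 0.15 ± 0.06 (limma adjusted p = 0.0317) and Col18a1 0.12 ± 0.03 (limma adjusted p = 0.00042). The last 2 were not called once a trend with GC content and length was removed. Col16a1 also lost its call with quantile normalization, with no filter, without the mean-variance trend, and without WT palmitate library 1 or 4 or WT control library 2 or 3.

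Among the chains that fell in WT, Col12a1 had a log2 fold change of -0.26 ± 0.06 (limma adjusted p = 0.00355), Col8a1 -0.28 ± 0.09 (limma adjusted p = 0.0214), Col5a1 -0.18 ± 0.04 (limma adjusted p = 0.00237) and Col5a3 -0.13 ± 0.04 (limma adjusted p = 0.0119). Col5a3 was not called with rescaled totals or quantile normalization. Col8a1 kept its call under 25 of 29 alternatives and lost it, among others, without the mean-variance trend (limma adjusted p = 0.0574). For Col1a1, WT palmitate libraries at 52186 to 55488 did not overlap WT control libraries at 60203 to 64433, and the difference of -0.22 ± 0.09 missed the threshold (limma adjusted p = 0.0608). Col1a2 (-0.18 ± 0.09), Col3a1 (-0.17 ± 0.09) and Col6a3 (-0.20 ± 0.08) had similar values, with limma adjusted p of 0.132, 0.175 and 0.052. These 4 chains were called lower, at nearly the same fold, with edgeR (adjusted p = 0.0103 for Col1a1, 0.00613 for Col1a2, 0.00104 for Col3a1 and 3.63e-05 for Col6a3), in a limma fit of the WT groups alone (adjusted p of 1.2e-06 to 7.56e-05) and without KO control library 3 (adjusted p of 0.000999 to 0.0129). They stayed uncalled under 22 of 29 alternatives for Col1a1, 25 for Col1a2, 25 for Col3a1 and 19 for Col6a3. The smallest changes under the alternatives were -0.144 for Col1a1, -0.065 for Col1a2, -0.06 for Col3a1 and -0.116 for Col6a3. In all, 14 of 30 chains did not overlap between WT palmitate and WT control, against 37.1% of all genes. The count of chains called lower was 11 in a fit of the WT groups alone, 10 with edgeR, 9 without KO control library 3 and 7 without KO control library 2. Fibrillar chains were 55.7 ± 0.17% of the summed per-kb collagen level in WT palmitate and 59.4 ± 0.511% in WT control, with no overlap. The summed stellate cell and fibroblast markers were 24854 to 25164 in WT palmitate and 27759 to 31700.4 in WT control, with 1 of 7 lower (Acta2, -0.78 ± 0.14), and their part in this was not tested.

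In KO cells, palmitate raised Col11a2 (0.53 ± 0.11, limma adjusted p = 0.000329), Col4a5 (0.20 ± 0.03, limma adjusted p = 9.73e-07) and Col4a6 (0.70 ± 0.25, limma adjusted p = 0.0293) and lowered Col27a1 (-0.33 ± 0.04, limma adjusted p = 1.49e-07) and Col18a1 (-0.06 ± 0.03, limma adjusted p = 0.0424), relative to KO control. These 3 higher and 2 lower calls of 30 stand beside 18.7% and 20.4% of all genes, 39.1% either way. Over all genes that split was 2845 higher and 3115 lower, and 3274 and 2726 with rescaled totals. None changed 2-fold, which 0.709% of all genes did upward and 0.335% downward, and 4 chains did not overlap, against 33.8% of all genes. Col4a6 overlapped between the groups, and the call of Col18a1 was lost under 6 of the 13 alternatives other than leaving out a library. It was also lost without KO palmitate library 3 or 4, WT palmitate library 2 or 3, KO control library 1, 2 or 3, or WT control library 2. Col1a1 in KO was 1106 to 1285 after palmitate and 1137 to 1544 in control, with a log2 fold change of -0.09 ± 0.09 (95% interval -0.28 to 0.09). Fibrillar chains were 9.53 ± 0.216% of the collagen total in KO palmitate and 9.88 ± 0.756% in KO control, with overlap.

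**Figure D5:**
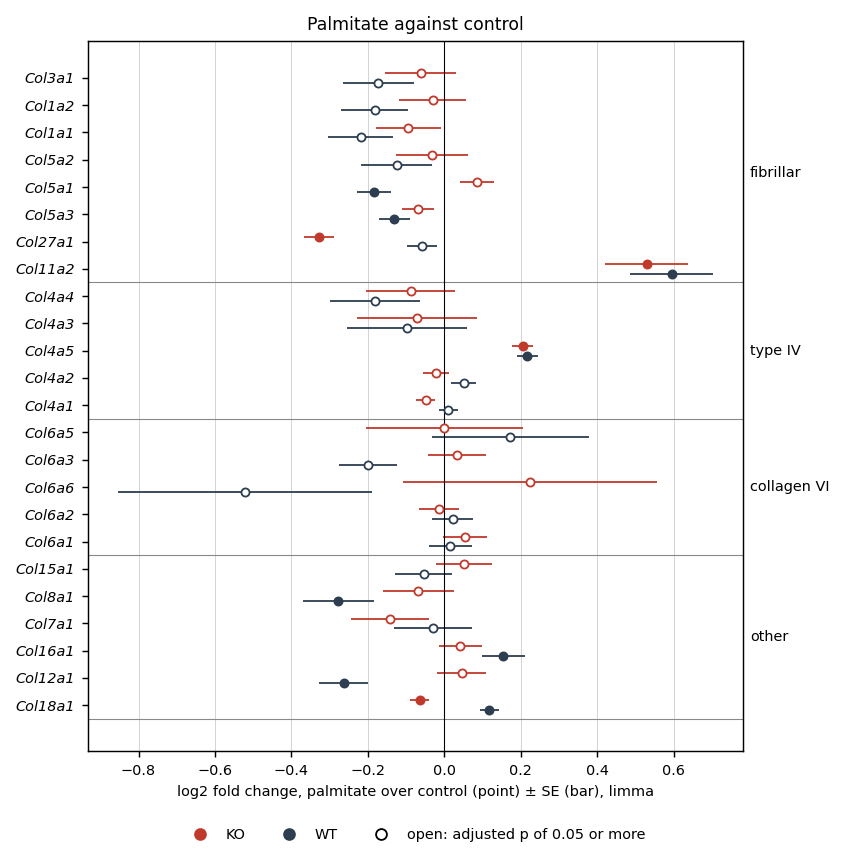
Log2 fold change of palmitate over control (limma, point) with its SE (bar) for the 24 chains, in KO (above) and WT (below) for each chain. Open points have an adjusted p of 0.05 or more. Col11a2 and Col4a5 are raised in both genotypes, and the values of Col27a1, Col5a1, Col12a1 and Col18a1 lie apart between genotypes, at -0.33 in KO and -0.06 in WT for Col27a1.

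The difference between these responses, KO minus WT, was called for 4 of 30 chains, 2 higher and 2 lower, where 4.19% of all genes were called higher, 5.71% lower and 9.9% either way. Col27a1 fell in KO and was not called in WT (difference -0.27 ± 0.06, limma adjusted p = 0.00187). Col18a1 fell in KO and rose in WT (difference -0.18 ± 0.04, limma adjusted p = 0.00103). Col5a1 and Col12a1 fell in WT and were not called in KO (differences 0.27 ± 0.06, limma adjusted p = 0.00818, and 0.31 ± 0.09, limma adjusted p = 0.0399). For Col11a2 and Col4a5, which rose in both genotypes, the difference was -0.07 ± 0.15 (95% interval -0.38 to 0.25) and -0.01 ± 0.04 (95% interval -0.09 to 0.07). The difference for Col12a1 was not called with rescaled totals, without the mean-variance trend, or in 12 of the 16 fits that leave out 1 library. It was still called without KO palmitate library 1, WT palmitate library 1, KO control library 4 or WT control library 3.

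Among the 16 folding and hydroxylation genes tested, 8 were higher and 4 lower with palmitate in KO, where 18.7% of all genes were higher and 20.4% lower. In WT 3 were higher and 3 lower, near the 17.7% and 19.9% of all genes. The difference of responses was called for 7, against 9.9% of all genes. P3h4, a member of the prolyl 3-hydroxylase family, had 0.27 ± 0.09 in KO and -0.36 ± 0.09 in WT (difference 0.63 ± 0.13, limma adjusted p = 0.00163). Among the 15 export, trimming and crosslinking genes, 4 were higher and 5 lower in KO and 1 higher and 9 lower in WT. Sec24d, a coat protein of the vesicles that carry procollagen out of the endoplasmic reticulum, rose in KO (0.71 ± 0.06) and fell in WT (-0.24 ± 0.06), a difference of 0.96 ± 0.09 (limma adjusted p = 1.83e-08). Of the receptors, Ddr2 rose in KO (0.77 ± 0.12, limma adjusted p = 8.45e-05), with 2 of 7 higher and 2 lower in KO and 2 higher and 1 lower in WT. Basement membrane partners were higher for 3 and lower for 5 of 15 in KO and higher for 2 in WT, with Lamb1 at -0.35 ± 0.04 and Agrn at -0.25 ± 0.03 in KO. Of the 6 collagenases 2 were higher in KO and 1 in WT, and of the 5 proteoglycans 1 was lower in KO and 0 changed in WT. These palmitate counts are over all genes tested, also those that passed the filter only through WT libraries. Of genes that reached it in both genotypes, 1 of 4 collagenases was higher in each genotype, and the 1 proteoglycan was not called. Of export genes 8 of 14 were lower in WT, and of basement membrane partners 4 of 13 were lower in KO.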

How the data were processed

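Libraries were made with a KAPA RNA HyperPrep kit from RNA freed of ribosomal RNA and sequenced paired-end on a HiSeq2000, per the labels' protocols. The same protocols speak of FFPE samples and of low RNA quality, although the samples are labelled as cultured cells, and whether that wording applies to these libraries is not stated. The deposited values are a linear signal that the table's name calls normalized counts. The submitters' processing notes name STAR, RSEM, DESeq2 and limma, with no role or version, and the genome build is not given in the sources used here, nor the annotation. All values above 0 (100%) were whole multiples, within 0.1 read, of a step per library, whose reciprocal equalled the recomputed median-of-ratios size factor, so whole reads were recovered. Intervals and floors cover counting error only.

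The values were fitted as log2(value + 1) with limma 3.58.1 in R 4.3.3 over 4 group means and all 16 libraries, with a mean-variance trend, robust empirical Bayes and Benjamini-Hochberg adjustment in each of 5 comparisons. The fit was checked on simulated counts with known changes in some genes of KO control. Every simulated gene had the same dispersion, a simpler setting than these data. Alternatives were edgeR 4.0.16 and DESeq2 1.42.0 on recovered reads, other scalings, filters and pseudocounts, a GC content and length trend fitted with mgcv, a replicate block, and 16 fits that leave out a library each. Coordinates and transcript lengths are from GENCODE vM21 (GRCm38), which held 42 of the 44 chains with the same version of the identifier, and levels per kb divide by the longest coding transcript. Strand use in counting is not given, so reads of overlapping genes may be shared. Chains, gene lists and tests were chosen with earlier results of these data known. Values in every library are given for the 24 chains with a mean of at least 50 in at least 1 group, and other chains by their range.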

Additional observations from a re-analysis of the deposited data

Results flagged for a closer look

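In 5 of 96 groups tested, 1 library lay far from the other 3 of its group by Dixon's test, and chance flags about 1 in 20 groups. Col6a2 in KO control library 1 was 369.9, against 449 to 457 in the others. Col1a2 in WT control library 1 was 36571, against 34723 to 34999. Col12a1 in WT control library 3 was 1637, against 1910.5 to 1956. Col16a1 in KO palmitate library 4 was 495, against 457 to 463. Col8a1 in KO control library 3 was 122, against at most 98.4 in the others.

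The palmitate response differed between KO and WT, by the test of the difference in limma, for Col27a1 (-0.27), Col18a1 (-0.18), Col5a1 (0.27) and Col12a1 (0.31), on the log2 scale as KO minus WT.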

How the results depend on the processing

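Of 3456 values of single chains under the alternatives, 3330 kept their side of the threshold, 64 lost their call and 58 gained one. Another 4 changed direction with a call in either fit. Values called in neither fit were counted among the 3330 even where their direction changed. For example, Col3a1 with palmitate in KO was -0.062 in the fit reported and 0.056 without KO control library 3. The 4 were Col4a1 in KO against WT after palmitate, at -0.042 with rescaled totals and -0.052 with quantile normalization (0.058 in the fit reported), and Col4a2 with the GC content and length trend removed, at 0.158 in control and 0.108 after palmitate. Counts of chains called lower with palmitate in WT (4 as reported) were 7 with that trend removed, 10 with edgeR, 9 with DESeq2 and 11 in a fit of the compared groups alone, and those called higher (4) were 2 with that trend removed. Chains called lower with palmitate in KO (2) were 1 with rescaled totals, TMM scaling, quantile normalization, no mean-variance trend, edgeR or the compared groups alone, and 5 with the GC and length trend removed. Chains called higher in KO against WT after palmitate (5) were 3 with rescaled totals, and chains with a higher difference of responses (2) were 1 with rescaled totals and without the mean-variance trend. The cause of these changes was not tested. Splits over all genes for the difference of responses were 638 higher and 870 lower, and 489 and 1141 with rescaled totals.

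Leaving out each library in turn gave 4 to 5 chains higher and 22 to 23 lower for KO against WT in control, and 3 to 6 higher and 21 to 23 lower after palmitate. It gave 3 to 4 higher and 3 to 9 lower with palmitate in WT, 2 to 5 higher and 1 to 2 lower in KO, and 1 to 3 higher and 2 lower for the difference. Chains higher in KO after palmitate were 3 without KO palmitate library 2, WT palmitate library 1 or WT palmitate library 2, and chains higher with palmitate in KO were 5 without KO control library 4. Of the 16 fits, 8 left 1 chain lower with palmitate in KO and 11 left 1 chain with a higher difference.

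Libraries with the same replicate number did not as a rule deviate together. Their 24 correlations ran from -0.24 to 0.231, 4 of them over 0.1, and 4 of 16 libraries correlated best with their own number. Libraries numbered 1 gave 0.231 (KO and WT palmitate), 0.13 (WT palmitate and WT control) and 0.116 (KO palmitate and WT control). The remaining value over 0.1 was 0.122, for KO and WT palmitate library 3. Correlations between different numbers ran from -0.241 to 0.342. With the replicate number as a block, KO against WT gave 4 chains higher and 22 lower in control and 5 higher and 22 lower after palmitate, palmitate gave 4 higher and 4 lower in WT and 3 higher and 2 lower in KO, and the difference gave 2 higher and 2 lower, the same counts as without it. Over all genes, edgeR on recovered reads called 5649 higher and 6109 lower for KO against WT in control, and limma 5759 and 5985. Chains below about 10 normalized counts are limited by depth, with a few reads per library.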
